A study of Homo sapiens with 6 samples.

Results

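The proteasome genes examined here were the protein-coding genes with the symbols *PSMA* to *PSMG* followed by a number, which encode the subunits of the proteasome, its activators, its inhibitor, and its assembly factors. The annotation holds 48 such genes, and 47 of the 29483 genes in the table were members. *PSMA8* was not analysed here. The samples were HK-2 cells, an immortalized cell line from the proximal tubule of the human kidney, and their RNA was sequenced in 6 libraries. All cells had been exposed to 25 mM HG medium, a high-glucose medium, for 7 days. The 3 control replicates then received no TEPP-46, and the 3 case replicates received 10 μM TEPP-46, an activator of the glycolytic enzyme PKM2, for 1 day. No group without HG exposure was analysed here, so the effect of glucose cannot be told apart from what both groups share. The study describes the replicates as independent and as treated apart from one another. Neither its methods nor the labels say whether the cultures were started separately, so the p-values below measure the spread between these samples. The epithelial genes *KRT8*, *KRT18*, *KRT19*, *CDH1*, and *EPCAM* were expressed, with *KRT19* highest at a mean of 346 FPKM, and so was *VIM*, which encodes the mesenchymal filament vimentin. Of these, *CDH1*, which encodes the adhesion protein E-cadherin, fell from 3.27, 3.41, and 3.3 FPKM in the control replicates to 1.95, 2.31, and 2.05 FPKM in the case replicates (log2 fold change -0.64, adjusted p = 0.0156 by limma). Values per replicate are scaled as described below, and the means in this paragraph are as deposited. *VIM* rose from 89.1, 93.5, and 94.2 FPKM to 160, 118, and 165 FPKM (0.66, adjusted p = 0.0204 by limma). *VIM* lost the call with no filter on low values and with no intensity trend. Both *CDH1* and *VIM* lost it when control replicate 1, 2, or 3 or case replicate 3 was left out. *KRT8* was lower without overlap and not called (-0.27, adjusted p = 0.125 by limma). It was called with FPKM unscaled, quantile normalization, and an equal FPKM sum in each library (adjusted p = 0.0371, 0.00607, and 0.0105 by limma). *KRT18*, *KRT19*, and *EPCAM* overlapped between the groups and were not called, with log2 fold changes of 0.02, 0.02, and 0.04 (adjusted p = 0.926, 0.922, and 0.795 by limma). The part of these differences in the values below was not tested. Of 7 proximal tubule markers in the table, none reached a mean of 0.5 FPKM, and the highest was *GGT1* at 0.162. The labelled origin was thus not visible in these transporter and brush border genes. No marker of podocytes, endothelial cells, fibroblasts, or leukocytes reached a mean of 0.5 FPKM either, the highest being *COL1A1* at 0.245.

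The proteasome is the large protease that degrades proteins tagged with ubiquitin. Its core particle, named 20S, is a stack of rings of α and β subunits, with the protease sites on 3 of the β subunits, and its regulatory particle, named 19S, recognizes tagged proteins, removes the ubiquitin, and unfolds the protein with a ring of ATPases. Dedicated chaperones assemble both particles, and other activators can replace the 19S particle. Cells commonly adjust the subunit genes together, for which the transcription factor NFE2L1 is the best known regulator.

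The values were FPKM, in which read counts are scaled to gene length and library depth. The reads behind the FPKM values numbered 18634891, 17924033, and 17378710 in control replicates 1, 2, and 3, and 16711934, 16047243, and 15363254 in case replicates 1, 2, and 3. In these reads every case library was below every control library. In the mapped reads that the study lists, case replicates 2 and 3 were above control replicate 3. The values below were divided by 1 factor per library, and log2 fold changes (log2FC, case minus control) were taken after 0.1 was added, which understates the change of low genes. Of the 47 members, 45 had a mean of at least 0.5 FPKM and were tested with limma among 13599 genes. A gene was called upregulated or downregulated at an adjusted p of at most 0.05.

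TEPP-46 treatment was accompanied by higher RNA levels of 15 proteasome genes and lower levels of 0 by limma. Of all tested genes, 7.34% were upregulated and 5.84% downregulated. At an unadjusted p under 0.05, 23 members were higher and 1 was lower, against 16.8% and 16.2% of all tested genes. By voom on whole reads, 19 were upregulated, against 10.2% of all tested genes, and 0 downregulated, against 1457 of 13599 genes. The balance depended on the scaling between libraries, with 8 members upregulated and 2 downregulated after quantile normalization, and 3 and 7 when all libraries were given an equal FPKM sum (TPM). The values of the groups did not overlap in 24 members that were higher and in 3 that were lower, *PSMC6*, *PSMD11*, and *PSME3*, against 19.5% and 20.4% of all tested genes. In the values as deposited there were 22 higher and 7 lower, with *PSMD1*, *PSMD2*, *PSMD5*, and *PSME4* in addition, against 14.2% and 26.3%. The changes were small. The log2FC of the 45 tested members ran from -0.24 to 0.56 with a median of 0.24, against -0.002 for all tested genes. Of these members, 33 were above 0 and 12 below. In bulk RNA, fewer cells of a type and less RNA per cell cannot be told apart.

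**Figure D1:**
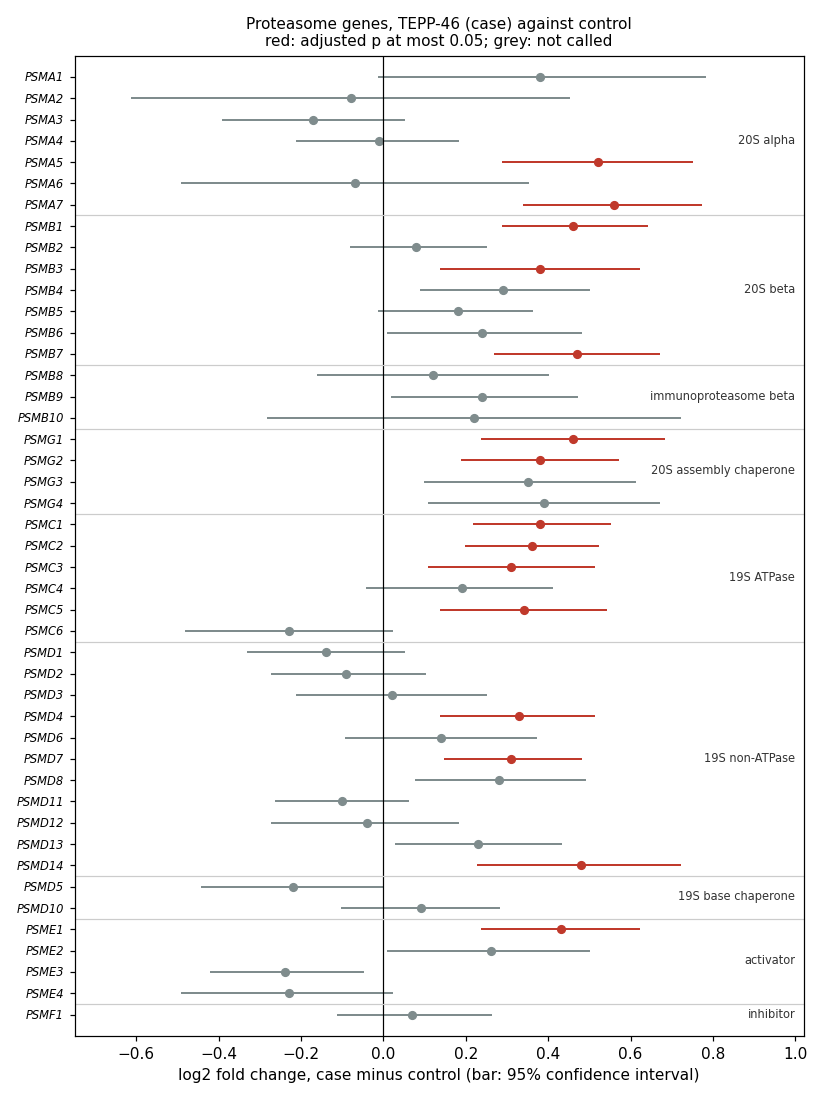
Log2FC (case minus control) of the 45 tested proteasome genes by role, with points for the estimate and bars for its 95% confidence interval over 3 control and 3 case replicates. Red marks the 15 upregulated genes, which lie between 0.31 and 0.56, and no gene to the left of 0 was called.

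The members held 1.03%, 1.04%, and 1.01% of the FPKM sum in control replicates 1, 2, and 3, and 1.07%, 1.04%, and 1.09% in case replicates 1, 2, and 3. The share of case replicate 2 was that of a control library. Relative to the control mean, the median member was 0.34, 0.09, and 0.28 higher on the log2 scale in case replicates 1, 2, and 3. Case replicate 2 thus stood closer to the controls than the other two case libraries did. It was the lowest of the case libraries in 12 of the 15 upregulated genes. All 15 were above every control in it as well, but they were selected by a test that included this library. All 15 calls were lost when any one of 4 libraries was left out. With control replicate 1, 2, or 3 or case replicate 3 removed, limma called 0 members upregulated, and 20, 17, 18, and 20 had a higher level at an unadjusted p under 0.05, against 12.6%, 11.8%, 12.8%, and 12.8% of all tested genes. With case replicate 2 removed, 23 members were upregulated and 1 downregulated, *PSMD5*, against 13.4% and 12.4% of all tested genes. With case replicate 1 removed, 13 were upregulated and 1 downregulated, *PSME3*, against 8.92% and 7.86%. Of all tested genes, 0.558%, 0.404%, and 0.5% were upregulated without control replicates 1, 2, and 3, and 0.89% without case replicate 3, so the loss of calls extended to the whole table.

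**Figure D2:**
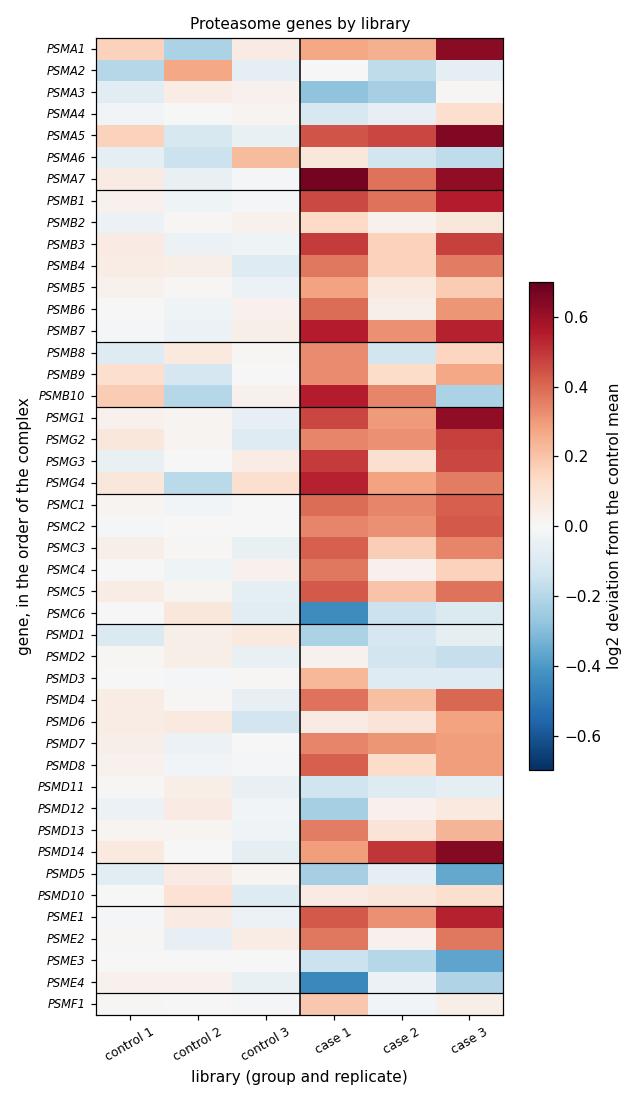
Log2 deviation of each tested proteasome gene (rows, in the order of the complex, with lines between the roles) from its control mean in each of the 6 libraries (columns). The control columns are pale, case replicates 1 and 3 are mostly red, and case replicate 2 is paler, with median deviations of 0.34, 0.09, and 0.28 in case replicates 1, 2, and 3.

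Among the α subunits of the core particle, which form its outer rings and its gate, 2 of 7 were upregulated and the median log2FC was -0.01. *PSMA7* (ENSG00000101182; chromosome 20 of GRCh38, 62136733 to 62143440) had the largest log2FC of all tested members. Its level was 192, 177, and 183 FPKM in control replicates 1, 2, and 3, and 292, 239, and 283 FPKM in case replicates 1, 2, and 3. All case libraries were above the highest control, with case replicate 2 the lowest of them. The log2FC was 0.56 (95% confidence interval 0.34 to 0.77, adjusted p = 0.0153 by limma). *PSMA5* (ENSG00000143106; chromosome 1, 109399042 to 109426448) rose from 22.6, 18.7, and 19.4 FPKM to 27.5, 28, and 31.8 FPKM. Here the case libraries lay close to one another and the controls below them, with a log2FC of 0.52 (0.29 to 0.75, adjusted p = 0.0204 by limma). The other α subunits were not called. *PSMA3* was at 85.4 ± 4.13 FPKM (SD, n = 3) in the control group and 76.1 ± 8.33 FPKM (SD, n = 3) in the case group, and *PSMA4* at 57.4 ± 0.971 and 56.9 ± 4.89 FPKM (SD, n = 3 each). *PSMA1* had a log2FC of 0.38 with an interval from -0.01 to 0.78. It belongs, with *PSMA2* and *PSMA6*, to the genes of low listed level described below.

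The β subunits form the inner rings. All 7 constitutive ones, *PSMB1* to *PSMB7*, had a log2FC above 0, except *PSMB2* and *PSMB5* with TPM and *PSMB2* with quantile normalization. The median was 0.29, and 6 of them were higher without overlap of the groups. Of these, 3 passed the test. *PSMB1*, a structural subunit, was at 108, 103, and 105 FPKM in the control replicates and at 145, 138, and 155 FPKM in the case replicates. With a log2FC of 0.46 (0.29 to 0.64, adjusted p = 0.0143 by limma) it had the smallest p of all members, at rank 243 of the tested genes. *PSMB7*, which carries the trypsin-like site, rose from 167, 163, and 173 FPKM to 246, 210, and 243 FPKM (log2FC 0.47, 0.27 to 0.67, adjusted p = 0.0182 by limma). *PSMB3*, a structural subunit, rose from 281, 262, and 264 FPKM to 377, 301, and 376 FPKM. Its case replicate 2 was again the lowest, and the call was at the threshold (log2FC 0.38, 0.14 to 0.62, adjusted p = 0.0495 by limma). *PSMB4*, which had the highest level of all members at 344 ± 18.4 FPKM in the control group and 422 ± 34.2 FPKM in the case group (SD, n = 3 each), was not called (log2FC 0.29, adjusted p = 0.0642 by limma).

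The remaining catalytic subunits did not pass the test. *PSMB5*, which carries the chymotrypsin-like site, was at 115, 114, and 110 FPKM in the control replicates and at 138, 119, and 128 FPKM in the case replicates (log2FC 0.18, -0.01 to 0.36, adjusted p = 0.166 by limma). *PSMB6*, which carries the caspase-like site, was at 172, 168, and 176 FPKM and at 226, 176, and 212 FPKM (log2FC 0.24, 0.01 to 0.48, adjusted p = 0.137 by limma). In *PSMB6* case replicate 2 and the highest control were equal to 3 digits. Its groups did not overlap after scaling but did in the values as deposited, as was also true of *PSMB9*.

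The immunoproteasome subunits *PSMB8*, *PSMB9*, and *PSMB10* replace *PSMB5*, *PSMB6*, and *PSMB7* in the core particle of immune cells and of cells exposed to interferon. None of them was called. *PSMB8* was at 23.6, 26.4, and 25.3 FPKM in the control replicates and 31.6, 22.8, and 27.8 FPKM in the case replicates, so that the groups overlapped. *PSMB9* was at 9.53, 8.04, and 8.78 FPKM and at 11, 9.61, and 10.6 FPKM. *PSMB10* was at 1.78, 1.35, and 1.6 FPKM and at 2.34, 2.01, and 1.33 FPKM. Their log2FC values were 0.12, 0.24, and 0.22 in this order (adjusted p = 0.54, 0.129, and 0.509 by limma). The plain ratio of each to its constitutive counterpart within a library does not depend on the scaling between libraries. *PSMB8* was 20.4%, 23.1%, and 23% of the *PSMB5* level in control replicates 1, 2, and 3, and 22.9%, 19.2%, and 21.7% of it in case replicates 1, 2, and 3. *PSMB9* was 5.56%, 4.78%, and 4.98% of *PSMB6* and then 4.89%, 5.45%, and 4.98%. *PSMB10* was 1.07%, 0.824%, and 0.922% of *PSMB7* and then 0.952%, 0.957%, and 0.546%. The groups overlapped in all 3 ratios. For the test 0.1 FPKM was added to both genes. The mean differences on the log2 scale were -0.06, -0.00, and -0.24 (exact permutation test, two-sided, p = 0.5, 1, and 0.7, each 1 after adjustment over the 3 ratios), where the smallest p that 3 against 3 replicates can give is 0.1.

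*PSMG1* to *PSMG4* encode the chaperones that assemble the core particle and do not stay in it. All 4 were higher without overlap, with a median log2FC of 0.39, and 2 of them were upregulated. *PSMG1* rose from 21.6, 21.4, and 20.2 FPKM in the control replicates to 29.3, 25.9, and 32.4 FPKM in the case replicates (log2FC 0.46, 0.24 to 0.68, adjusted p = 0.0242 by limma). *PSMG2*, its partner in assembly of the α ring, rose from 29.5, 28.3, and 26.2 FPKM to 35.4, 34.9, and 39.2 FPKM (log2FC 0.38, 0.19 to 0.57, adjusted p = 0.0277 by limma). The other pair of chaperones had changes of similar size and did not pass the test. *PSMG3* had a log2FC of 0.35 (0.10 to 0.61, adjusted p = 0.0689 by limma) and *PSMG4* one of 0.39 (0.11 to 0.67, adjusted p = 0.0674 by limma).

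The 6 ATPases of the 19S particle, *PSMC1* to *PSMC6*, form the ring that unfolds proteins. Of these, 4 were upregulated, and the median log2FC was 0.32. *PSMC1* was at 16.3, 15.8, and 16.1 FPKM in the control replicates and at 21.1, 20.4, and 21.5 FPKM in the case replicates (log2FC 0.38, 0.22 to 0.55, adjusted p = 0.019 by limma). *PSMC2* rose from 37.3, 37.5, and 37.5 FPKM to 47.2, 46.6, and 50.6 FPKM (log2FC 0.36, 0.20 to 0.52, adjusted p = 0.0214 by limma). In both genes the replicates of a group were close together and case replicate 2 was not set apart. *PSMC5* rose from 34.6, 33.9, and 31.8 FPKM to 45.2, 38.4, and 43.4 FPKM (log2FC 0.34, adjusted p = 0.0428 by limma). *PSMC3* rose from 110, 107, and 103 FPKM to 143, 120, and 135 FPKM (log2FC 0.31, adjusted p = 0.0497 by limma). In these 2 genes case replicate 2 lay between the controls and the other case libraries. Of 13 other settings with all libraries, *PSMC5* was called in 6 and *PSMC3* in 4. *PSMC6* went the other way, at 23.1, 24.5, and 21.8 FPKM in the control replicates and 17, 20.8, and 21.6 FPKM in the case replicates. Its groups did not overlap, but case replicate 3 nearly equalled control replicate 3, and it did not pass the test (log2FC -0.23, -0.48 to 0.02, adjusted p = 0.179 by limma). *PSMC1* shares 76.1% of its exon bases with *NRDE2* on the opposite strand, a gene of 0.886 to 1.21 FPKM in these libraries, and *PSMC5* shares 15.3% with *FTSJ3*, of 28.1 to 34.4 FPKM. The strandedness of the libraries is not given in the sources used here, so reads of these pairs cannot be told apart.

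Of the 11 non-ATPase subunits of the 19S particle, 3 were upregulated and the median log2FC was 0.14. *PSMD14*, the enzyme that cuts ubiquitin chains off the substrate, had the largest log2FC of the tested members of the regulatory particle. Its level was 13.1, 12.5, and 11.8 FPKM in the control replicates and 15.2, 17.7, and 19.5 FPKM in the case replicates (log2FC 0.48, 0.23 to 0.72, adjusted p = 0.0281 by limma). With *PSMA5*, it was 1 of 2 upregulated members for which case replicate 1 was the lowest case library. *PSMD7*, which forms a dimer with *PSMD14* in the particle, rose from 22.2, 20.9, and 21.6 FPKM to 27.4, 26.7, and 26.4 FPKM (log2FC 0.31, 0.15 to 0.48, adjusted p = 0.0297 by limma). *PSMD4*, a ubiquitin receptor, rose from 149, 145, and 138 FPKM to 187, 166, and 190 FPKM (log2FC 0.33, 0.14 to 0.51, adjusted p = 0.0392 by limma). The groups did not overlap in either, but each was called in only 6 of 13 other settings with all libraries. Both lost the call with quantile normalization, TPM, no intensity trend, the replicate block, and the length correction. The large scaffold subunits of the base, *PSMD1* and *PSMD2*, had log2FC values of -0.14 and -0.09 (adjusted p = 0.281 and 0.494 by limma). *PSMD2* was among the most abundant members, at 201 ± 6.09 FPKM in the control group and 189 ± 14 FPKM in the case group (SD, n = 3 each). *PSMD8* and *PSMD13*, of the lid, were higher without overlap but not called (log2FC 0.28 and 0.23, adjusted p = 0.0729 and 0.115 by limma). The chaperones of the base, *PSMD5* and *PSMD10*, had log2FC values of -0.22 and 0.09 and were not called (adjusted p = 0.155 and 0.495 by limma).

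The activators are alternatives to the 19S particle. *PSME1*, of the PA28αβ activator, rose from 40.1, 42.1, and 39.3 FPKM in the control replicates to 54.7, 50.7, and 58.9 FPKM in the case replicates (log2FC 0.43, 0.24 to 0.62, adjusted p = 0.02 by limma). Its partner *PSME2* was at 22.1 ± 0.829 FPKM in the control group and 26.5 ± 3.42 FPKM in the case group (SD, n = 3 each) and was not called (log2FC 0.26, adjusted p = 0.136 by limma). The nuclear activators had the 2 lowest log2FC values of all tested members. *PSME3* (ENSG00000131467; chromosome 17, 42824385 to 42843760), which encodes PA28γ, was at 64.3, 64.2, and 64.3 FPKM in the control replicates and at 58.1, 55.9, and 49.8 FPKM in the case replicates. Every case library was below every control. By limma it was the only member lower at an unadjusted p under 0.05, and it was not called (log2FC -0.24, -0.42 to -0.05, adjusted p = 0.0852 by limma). *PSME4*, which encodes PA200, was at 10.3, 10.3, and 9.76 FPKM and at 7.4, 9.81, and 8.74 FPKM. Case replicate 2 reached into the range of the controls there (log2FC -0.23, -0.49 to 0.02, adjusted p = 0.187 by limma). The inhibitor *PSMF1* was at 44.6 ± 0.246 and 47 ± 3.6 FPKM (SD, n = 3 each; log2FC 0.07, adjusted p = 0.552 by limma).

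The promoters of the upregulated members *PSMB3*, *PSME1*, *PSMG1*, and *PSMG2* hold the letters of the antioxidant response element core, TGACNNNGC, to which NFE2L1 and NFE2L2 bind as partners of small MAF proteins. They were chosen as the 4 of 11 upregulated members with a matched promoter that hold these letters, and are shown beside *PSME4*, which holds them too and had a log2FC below 0. The promoters of *PSMB9*, *PSMC4*, *PSMD1*, *PSMD3*, *PSMD5*, *PSMD9*, *PSMD12*, and *PSME2*, none of them upregulated, also hold the letters and are not shown. The sequences are the 250 bases before the RefSeq start in GRCh38.p14, 5′ to 3′ on the strand of the gene, with the matching letters in capitals. They lie at chr17:38752491-38752740 on the plus strand, chr14:24135944-24136193 on the plus strand, chr21:39183452-39183701 on the minus strand, chr18:12658488-12658737 on the plus strand, and chr2:53970994-53971243 on the minus strand. The match begins at position -104, -86, -183, -39, and -34 from the start in this order, and in *PSME4* it is on the other strand, so that the capitals read as its reverse complement. The gene annotation used for exons places the start of *PSME1*, *PSMG1*, and *PSMG2* further upstream than RefSeq does.
PSMB3: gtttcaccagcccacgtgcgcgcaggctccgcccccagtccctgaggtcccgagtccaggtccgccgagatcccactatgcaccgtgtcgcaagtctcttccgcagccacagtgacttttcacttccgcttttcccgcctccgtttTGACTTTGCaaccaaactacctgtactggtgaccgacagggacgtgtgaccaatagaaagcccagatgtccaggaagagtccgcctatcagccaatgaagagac
PSME1: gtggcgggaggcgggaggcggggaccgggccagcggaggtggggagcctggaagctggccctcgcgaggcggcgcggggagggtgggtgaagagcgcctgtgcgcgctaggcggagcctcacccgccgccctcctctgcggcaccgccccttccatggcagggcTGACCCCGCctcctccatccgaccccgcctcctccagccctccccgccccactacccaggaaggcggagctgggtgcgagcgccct
PSMG1: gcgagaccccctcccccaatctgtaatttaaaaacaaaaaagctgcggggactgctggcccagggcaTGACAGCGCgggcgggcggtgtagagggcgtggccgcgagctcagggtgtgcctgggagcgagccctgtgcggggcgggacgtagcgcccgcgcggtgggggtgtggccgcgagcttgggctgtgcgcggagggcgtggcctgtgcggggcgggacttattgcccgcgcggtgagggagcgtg
PSMG2: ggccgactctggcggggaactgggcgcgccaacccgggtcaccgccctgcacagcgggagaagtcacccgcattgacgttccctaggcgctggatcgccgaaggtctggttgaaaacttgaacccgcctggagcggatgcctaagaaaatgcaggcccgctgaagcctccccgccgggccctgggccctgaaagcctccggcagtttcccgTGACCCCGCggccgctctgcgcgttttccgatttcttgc
PSME4: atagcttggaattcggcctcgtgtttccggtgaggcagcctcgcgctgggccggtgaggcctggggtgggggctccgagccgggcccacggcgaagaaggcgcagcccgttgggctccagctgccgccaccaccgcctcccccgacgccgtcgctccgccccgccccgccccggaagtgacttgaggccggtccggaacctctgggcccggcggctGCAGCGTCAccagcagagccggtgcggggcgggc

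A RefSeq promoter was matched for 42 of the 48 annotated members, counted over 250 bases before to 50 after the start and on both strands. The letters TGACNNNGC were found in 13 of them (31%) and in 13.6% of 27305 promoters of the same length. Of the 11 upregulated members with a matched promoter, 4 held them. The CCAAT box was found in 19 members (45.2%), among them 8 of the 11 upregulated ones, and in 35.7% of all promoters. The heat shock element core GAANNTTC was found in 0 members and in 6.87% of all promoters. None of these motifs contains another in its letters. *PSMA7*, *PSMB1*, *PSMB6*, *PSMB7*, *PSMD4*, and *PSMG3* were not matched. A match is a description of the letters and not of a bound site.

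Of 36 other genes of the pathway, all tested, 6 were upregulated and 1 was downregulated, with a median log2FC of 0.11, against 7.34%, 5.84%, and -0.002 for all tested genes. The largest changes were among the 7 genes around NFE2L1 and NFE2L2, of which 3 were upregulated. *NFE2L2*, which encodes NRF2, a regulator of antioxidant genes, was at 13.7, 14.4, and 12.1 FPKM in the control replicates and at 17.9, 20.9, and 22.8 FPKM in the case replicates (log2FC 0.61, 0.35 to 0.87, adjusted p = 0.0195 by limma). *MAFF*, a small MAF partner, rose from 7.9, 7.64, and 8.89 FPKM to 16.8, 12.8, and 12.4 FPKM (log2FC 0.76, 0.47 to 1.06, adjusted p = 0.0153 by limma). *MAFG*, another of them, rose from 25.1, 24.9, and 24.4 FPKM to 37.8, 35.9, and 32.4 FPKM (log2FC 0.51, 0.32 to 0.70, adjusted p = 0.0143 by limma). With TPM, *NFE2L2* was at 0.41 and not called (adjusted p = 0.059 by limma), and *MAFG* was at 0.31. As scaled for the test, *NFE2L2*, *MAFF*, and *MAFG* did not overlap between the groups, while *MAFK* was not called (log2FC -0.05, adjusted p = 0.827 by limma). *NFE2L1* itself was at 47.5, 47, and 46.2 FPKM and at 57.2, 57.4, and 46.6 FPKM, so that case replicate 3 lay among the controls (log2FC 0.19, adjusted p = 0.205 by limma). *DDI2*, the protease that activates the NFE2L1 protein, had the lowest log2FC of the list, at 1.56, 2.03, and 1.96 FPKM in the control replicates and 1.05, 1.43, and 1.34 FPKM in the case replicates (log2FC -0.51, adjusted p = 0.0858 by limma). It was called with TPM (-0.70, adjusted p = 0.0437 by limma) and by voom on whole reads (-0.53, adjusted p = 0.0213), while the gene length correction left -0.22 (adjusted p = 0.332 by limma).

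Among 12 genes of proteins that associate with the proteasome, 2 were upregulated and the median log2FC was 0.14. *ZFAND2A*, a stress-induced regulator that binds the 19S particle, had the highest log2FC, rising from 11.2, 10.6, and 9.45 FPKM to 15.4, 13.5, and 17 FPKM (0.55, 0.29 to 0.80, adjusted p = 0.0226 by limma), with 0.35 under TPM. *SEM1*, the smallest 19S subunit, rose from 8.74, 8.64, and 8.8 FPKM to 11.7, 10.3, and 11.6 FPKM (0.35, 0.16 to 0.55, adjusted p = 0.0354 by limma). With TPM it was at 0.15 and not called (adjusted p = 0.184 by limma), and with the length correction at 0.62 and called. *UBE3C*, a ubiquitin ligase on the proteasome, had the lowest log2FC of these (-0.14, adjusted p = 0.324 by limma). None of the 6 genes of ubiquitin and its E1 enzymes was called in either direction by limma, with 2 higher at an unadjusted p under 0.05. *UBA6*, an E1 enzyme, had the lowest log2FC among them (-0.24, adjusted p = 0.232 by limma). The 11 genes of shuttle factors and of the VCP segregase and its cofactors had a median log2FC of 0.03. Of these, *FAF1*, a VCP cofactor, rose from 6.93, 6.52, and 7.19 FPKM to 8.25, 9.01, and 9.35 FPKM (log2FC 0.36, 0.16 to 0.57, adjusted p = 0.0379 by limma). *UBQLN4*, a shuttle factor, fell from 59, 59, and 55.7 FPKM to 48.2, 46.7, and 42.8 FPKM (log2FC -0.34, -0.51 to -0.16, adjusted p = 0.0312 by limma), with -0.54 under TPM. With TPM, *FAF1* was at 0.16 and not called (adjusted p = 0.281 by limma). *SEM1* and *FAF1* also lost their calls with FPKM unscaled and with the replicate block (adjusted p = 0.0526 and 0.0554 by limma with the block). With no filter on low values and with no intensity trend, *SEM1*, *FAF1*, *ZFAND2A*, and *UBQLN4* lost theirs, as *NFE2L2* did with no filter. *ZFAND2A* also lost it with the block and length correction together (adjusted p = 0.0704 by limma). Without control replicates 1, 2, and 3, 0 of the 36 genes were upregulated by limma, against 0.558%, 0.404%, and 0.5% of all tested genes. In the same order, 8, 7, and 8 were higher at an unadjusted p under 0.05, against 12.6%, 11.8%, and 12.8% of all tested genes. Without case replicate 3, 1 gene was upregulated and 11 were higher at an unadjusted p under 0.05, against 0.89% and 12.8%. The downregulated gene, *UBQLN4*, lost its call when any 1 of these 4 replicates was left out.

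Some members had far lower levels than the rest. The mean FPKM as deposited was 0.448 for *PSMD9*, 0.732 for *PSMA2*, 1.1 for *PSMA6*, 1.6 for *PSMA1*, and 1.73 for *PSMB10*, and no other member but *PSMB11* was below them. These 5 were also the only members with over 50% of their coding bases in exons of another gene on the same strand, which was in each case a readthrough gene that joins the member to its neighbour. The share was 58.7% for *PSMD9*, 97.8% for *PSMA2*, 70.4% for *PSMA6*, 88.6% for *PSMA1*, and 58.3% for *PSMB10*. In the other 42 members in the table it was at most 14.2%, and 40 of them shared no coding base. By default HTSeq gives a read that lies in more than 1 gene to none of them. Its setting is not given in the sources used here, and the part of this overlap in the low values was not tested. Of the readthrough genes, 4 were in the table, and the one over *PSMA2* was listed at 0 in all libraries. *PSMD9* was at 0.317, 0.285, and 0.426 FPKM in the control replicates and at 0.559, 0.523, and 0.591 FPKM in the case replicates and fell below the filter. *PSMB11*, a thymus-specific subunit, was at 0.0249 FPKM in control replicate 1 and listed at 0 in the other 5 libraries. Of the 41 tested members without such an overlap, 15 were upregulated and the median log2FC was 0.24, as with all members.

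**Figure D3:**
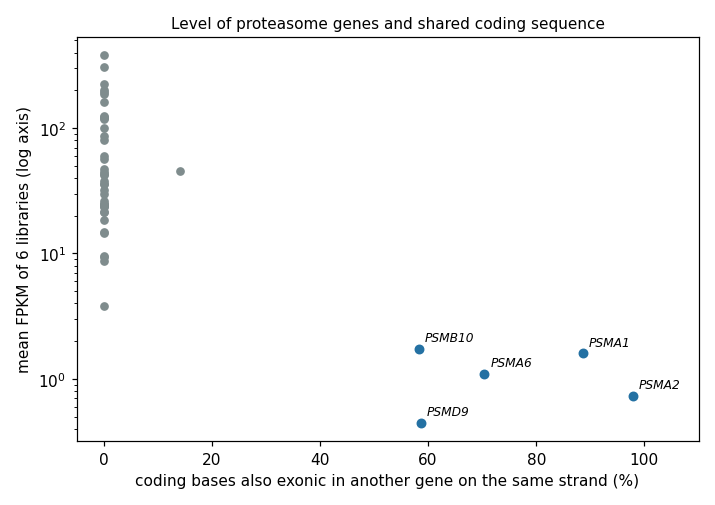
Mean FPKM as deposited over the 6 libraries (log axis) of the proteasome genes against the percentage of their coding bases that are exonic in another gene on the same strand. The 5 named genes in blue share 58.3% to 97.8% and lie between 0.448 and 1.73 FPKM, below all grey points. *PSMB11* is not drawn.

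Processed pseudogenes of the members could also share reads with them. Of 44 annotated pseudogenes, 18 were in the table and 3 had a mean of at least 0.5 FPKM. *PSMA6P1* was at 13.8 FPKM on average, above its parent *PSMA6* at 1.1 FPKM. *PSMC1P1* was at 3.43 FPKM, below *PSMC1*, and *PSME2P1* at 0.553 FPKM, below *PSME2*. The values of *PSMA6*, *PSMC1*, and *PSME2* are therefore uncertain to this extent.

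The log2FC of the members moved with gene length. Across the 45 tested members the Spearman correlation between log2FC and the exon length behind the FPKM values was -0.40, and across all 13599 tested genes it was -0.36, as a description over genes that share the same 6 libraries. The median exon length was 3538 bases in the members and 4304 bases in all tested genes. Of the 22 shorter members, 10 were upregulated with a median log2FC of 0.31. Of the 23 longer members, 5 were upregulated with a median of 0.02. Among all tested genes, those shorter than the median member had a median log2FC of 0.14, with 11.3% upregulated, and the longer ones a median of -0.09, with 4.71% upregulated. *PSMD14*, *PSMA5*, *PSMG4*, and *PSMC1* were long members with a high log2FC. After a correction of each library for a smooth trend on length, 12 members were upregulated, against 7.05% of all tested genes, 11 of them among the 15 and *PSMG4* in addition, and the median log2FC was 0.16. The part of length in the result was not tested beyond this.

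**Figure D4:**
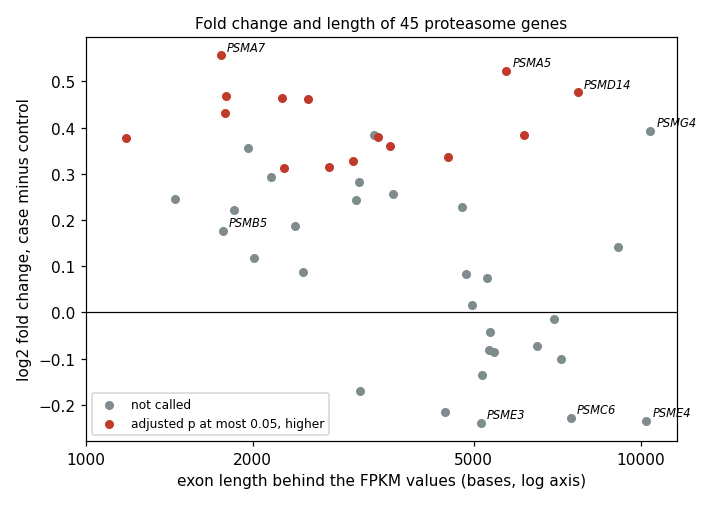
Log2FC (case minus control) of the 45 tested proteasome genes against the exon length behind their FPKM values in bases (log axis), with the 15 upregulated genes in red. Most genes under 3538 bases lie above 0, and the genes of lowest log2FC, such as *PSME3*, *PSMC6*, and *PSME4*, are among the longer ones.

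The count also depended on the scaling between libraries. With TPM, 3 members, *PSMA7*, *PSMB1*, and *PSMB7*, were upregulated, against 2.82% of all tested genes. Then 7 were downregulated, namely *PSMA3*, *PSMC6*, *PSMD1*, *PSMD2*, *PSMD5*, *PSMD11*, and *PSME3*, against 17.6%. The median log2FC of all tested genes was then -0.19 and that of the members 0.05. With quantile normalization, 8 were upregulated and 2 downregulated, *PSMD2* and *PSME3*, against 6.42% and 6.58% of all tested genes. With FPKM unscaled there were 10 and 1, *PSME3*, against 4.87% and 8.27%. *PSMA7*, *PSMB1*, and *PSMB7* were upregulated under all 4 scalings, in each with all 6 libraries. Other settings lowered the count with the whole table. With no filter on low values 5 members were upregulated, against 1.18% of all tested genes, and without the intensity trend 6, against 3.18%. With a replicate block there were 10, against 6.24%, and with the block and the length correction 6, against 4.66%. Of the 13 settings with all libraries other than the one reported, *PSMA7*, *PSMB1*, *PSMB7*, and *PSMC1* were called in 12, and *PSMA5* and *PSME1* in 11. *PSMC2*, *PSMD14*, and *PSMG1* were called in 9 and *PSMG2* in 8. *PSMC5*, *PSMD4*, and *PSMD7* were called in 6, *PSMC3* in 4, and *PSMB3* in 3.

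**Figure D5:**
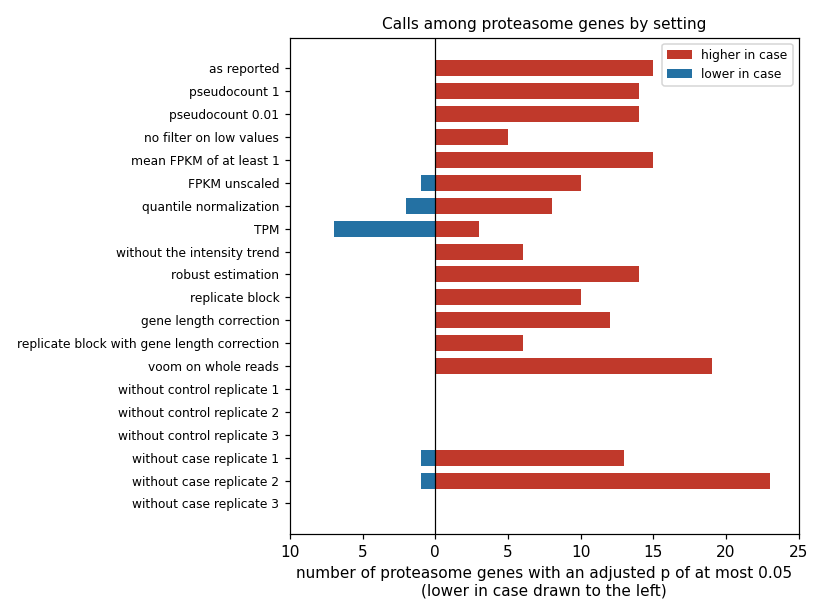
Number of proteasome genes upregulated (red, to the right) and downregulated (blue, to the left) at an adjusted p of at most 0.05 under each setting of the analysis. The count of 15 as reported went to 3 and 7 with TPM, to 23 and 1 without case replicate 2, and to 0 and 0 without any control replicate or case replicate 3.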

How the data were processed

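RNA was sequenced from 6 libraries of HK-2 cells, 3 per group, grouped by the labels. Per the labels and the study's methods, the authors filtered the reads, aligned them to GRCh38.p13 with HISAT2 2.1.0, and counted them on genes with HTSeq 0.6.0. The deposited values are FPKM, which the authors calculated from these counts. RNA selection, strandedness, and annotation version are not given in the sources used here.

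Symbols, exons, and readthrough genes were taken by Ensembl identifier from a GENCODE annotation of GRCh38, which matched 29063 genes. Whole reads were recovered from the FPKM values within 0.01 read for 80.7% of the 27922 genes above 0, and such reads, having no molecular identifiers, may count a molecule repeatedly. Each library was scaled by its median-of-ratios factor (0.939 to 1.031), and log2(FPKM + 0.1) of the 13599 genes with a mean of at least 0.5 FPKM was tested in R 4.3.3 with limma 3.58.1, with an intensity trend, no covariate, and Benjamini-Hochberg adjustment over all tested genes. Calls needed an adjusted p of at most 0.05. The authors' test needs counts, for which limma stands in here. The procedure was tested on simulated data. Per-library values are given for every called member, the tested members with the 3 highest and 3 lowest log2FC, *PSMB5* to *PSMB10*, and members below the filter. Other pathway genes are named where called or at the ends of their list. One such gene is not reported here. *PSMA3*, *PSMA4*, *PSMB4*, *PSMD2*, some other uncalled genes, and the changes of the epithelial markers and *VIM* were added after their values were seen. The members and lists were chosen with earlier results of these data known. Alternatives were other pseudocounts, filters, scalings, variance models, a replicate block, a length correction, voom with TMM on whole reads, and each replicate left out.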

Additional observations from a re-analysis of the deposited data

How the results depend on the processing

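Under the 19 alternatives for filter, pseudocount, scaling, model, and replicates, the upregulated members numbered 5 with no filter on low values, 8 with quantile normalization, 3 with TPM, 6 without the trend on intensity, and 6 with a replicate block plus the length correction. Leaving out 1 replicate each gave 0 to 23. The downregulated members numbered 1 with FPKM unscaled, 2 with quantile normalization, and 7 with TPM, and 0 to 1 when 1 replicate was left out. The median log2FC of the members was 0.10 with quantile normalization and 0.05 with TPM. Of the 36 other pathway genes, 2 were upregulated and 0 downregulated with no filter, among 329 and 191 of 27922 genes. With TPM there were 3 and 3, against 2.82% and 17.6% of all tested genes. Without the intensity trend there were 3 and 0, among 433 and 414 of 13599 genes. Their downregulated count was 2 with quantile normalization, against 6.58%, and 2 with voom, among 1457 of 13599 genes. Leaving out 1 replicate each gave 0 to 8 upregulated, against 0.404% to 13.4% of all tested genes. It gave 0 to 1 downregulated, among 14 to 1682 genes of the table.

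Values under all settings were computed for 61 genes, the 45 tested members and 16 others. The log2FC changed sign with TPM for *NFE2L1* (-0.01), *PSMB2* (-0.12), *PSMB5* (-0.02), *PSMB8* (-0.08), *PSMC4* (-0.01), *PSMD3* (-0.18), *PSMD6* (-0.06), *PSMD10* (-0.11), and *PSMF1* (-0.13). It did with quantile normalization for *PSMA6* (0.00), *PSMB2* (-0.04), *PSMD3* (-0.14), and *PSMF1* (-0.05), and with FPKM unscaled for *PSMD3* (-0.06) and *PSMF1* (-0.00). With the length correction, alike with and without the replicate block, it did for *PSMA4* (0.10), *PSMA6* (0.03), *PSMB8* (-0.02), *PSMD10* (-0.04), *PSMD11* (0.03), *PSMD12* (0.01), *UBA6* (0.03), and *UBE3C* (0.06). When 1 replicate was left out, the log2FC ran across 0 for *PSMA2* (-0.18 to 0.05), *PSMA4* (-0.08 to 0.03), *PSMA6* (-0.15 to 0.04), *PSMD3* (-0.09 to 0.07), *PSMD12* (-0.10 to 0.05), and *MAFK* (-0.18 to 0.06). None of these genes was called under a setting that reversed it, and the cause was not tested. Over the 61 genes, 902 values kept their direction and side of the threshold, 181 lost the call, 37 gained it, and 38 reversed.

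The labels give both groups replicate numbers 1 to 3 and do not say whether same-numbered libraries were paired. The deviations of same-numbered libraries from the group means correlated at -0.053 to 0.1. Those of differently numbered libraries correlated at -0.182 to 0.117, so these values cannot settle whether there was a pairing. With the replicate block, 10 members were upregulated, all among the 15, and 0 downregulated. By voom on whole reads, 19 members were upregulated, 15 of them shared, among 1383 upregulated and 1457 downregulated genes of the table. *PSMB11* had 1 read in 1 library and was listed at 0 in the others, so no change of it could be measured. The median SD between replicates on the log2 scale was 0.089 for control and 0.189 for case libraries.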
